A study of Mus musculus with 6 samples.

Results

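Secreted BMP and activin ligands and the extracellular proteins that bind them were followed in murine 10T1/2 cells after photodynamic therapy (PDT). The set was chosen by gene symbol, with earlier results of these data known, and held 10 of the 57180 rows of the read count table. Its ligands were Bmp2, Bmp4, Inhba, Inhbb and Gdf15, and its inhibitors were Fst, Fstl1, Fstl3, Grem1 and Nog. All 10 symbols were in the table. Of these, 4 fell in PDT, 4 were tested and did not pass the threshold, and 2 (Bmp2 and Nog) were too low to be tested. Over all 17635 tested genes, 17.5% were lower in PDT and 18.7% higher.

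The 10T1/2 line is a mouse mesenchymal fibroblast line. All 6 samples had been stimulated with TGF-β at 5 ng per mL to model cancer-associated fibroblasts, and what TGF-β itself changes was not measured. The 3 control samples were given PBS, and the other 3 were given Ce6@D4-EV–mediated targeted photodynamic therapy, in which midkine-directed extracellular vesicles carried the photosensitiser chlorin e6 and the cells were then irradiated. The effect of vesicles, of dye or of light alone was not analysed here, because all were given at once. The design calls the samples biological replicates without naming cultures or days, and p-values therefore reflect the variation among these 6 samples only.

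BMPs and activins are dimeric ligands of the TGF-β family that signal through type I and type II receptor kinases. BMP receptors mainly activate SMAD1, SMAD5 and SMAD9, and activin receptors activate SMAD2 and SMAD3. Secreted inhibitors hold the ligands away from the receptors, so the level of free ligand depends on both. In mesenchymal cells BMPs are known for driving bone and cartilage differentiation, and activin A, the dimer of the Inhba product, for its part in wound repair and fibrosis.

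Libraries held 83195529 to 99527847 counts. The first principal component (43.8% of the variance) separated the groups, with scores of -35.9 to -32.9 in PBS and of 39.9, 38.9 and 23.7 in PDT replicates 1, 2 and 3. Of 10 mesenchymal fibroblast markers, 9 were at 1 CPM or more and Thy1 was at 0.297 CPM in PBS. Their summed level was 28098 to 29481 CPM in PBS and 16979 to 17847 CPM in PDT. The largest falls in CPM were of Col1a1 (6025 to 2428), Col1a2 (7463 to 3954) and Postn (3516 to 1121). Vim, Pdgfra, Pdgfrb and Acta2 had log2 fold changes of -0.32 to -0.25 and Tagln of -0.92, and S100a4 (0.11) and Thy1 (0.04) were not lower. Markers of 5 other cell types were summed likewise. The 7 leukocyte markers summed to 0.990 to 1.04 CPM in PBS and 1.73 to 1.82 CPM in PDT, with Ptprc, Adgre1 and Cd3e at 0 counts in every library. Epithelial and endothelial markers summed to at most 1.52 CPM in any library, with Epcam and Kdr at 0 counts. The 4 adipocyte markers summed to 11.6 to 14.4 CPM in PBS and 16.6 to 17.0 CPM in PDT, nearly all from Fabp4. Skeletal muscle markers summed to at least 2.18 CPM in each PBS library and at least 0.969 CPM in each PDT library, nearly all from Acta1, with Myod1 and Myog at 0 counts. The part of these differences in the results was not tested.

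Of the 17635 genes tested, 6372 (36.1%) changed between PDT and PBS at an adjusted p under 0.05, and 3078 (17.5%) were lower in PDT. Of the calls 51.7% were higher, and 63.0% with scaling by library size only. The median log2 fold change of all tested genes was 0.01. Among the 10 members, Bmp4, Inhba, Fst and Fstl1 were lower and 0 were higher (18.7% of all tested genes were higher). With the replicate number as a block, or without PDT replicate 3, Grem1 was lower as well. The groups did not overlap in CPM for 5 members, these 4 and Inhbb, as for 49.0% of all tested genes. The median log2 fold change was -0.77 over the 4 tested ligands and -0.28 over the 4 tested inhibitors. Each of these medians rests in part on a gene near the limit of detection (Gdf15 and Fstl3), and their difference was not tested. Levels below are normalised read counts (CPM, on TMM-scaled library sizes) as the mean ± SD over 3 libraries. Each log2 fold change compares PDT with PBS and carries its SE. For single genes, adjusted p refers to edgeR's quasi-likelihood test, adjusted over all tested genes by Benjamini-Hochberg. In these bulk samples, fewer cells of a kind and less RNA per cell cannot be told apart.

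**Figure D1:**
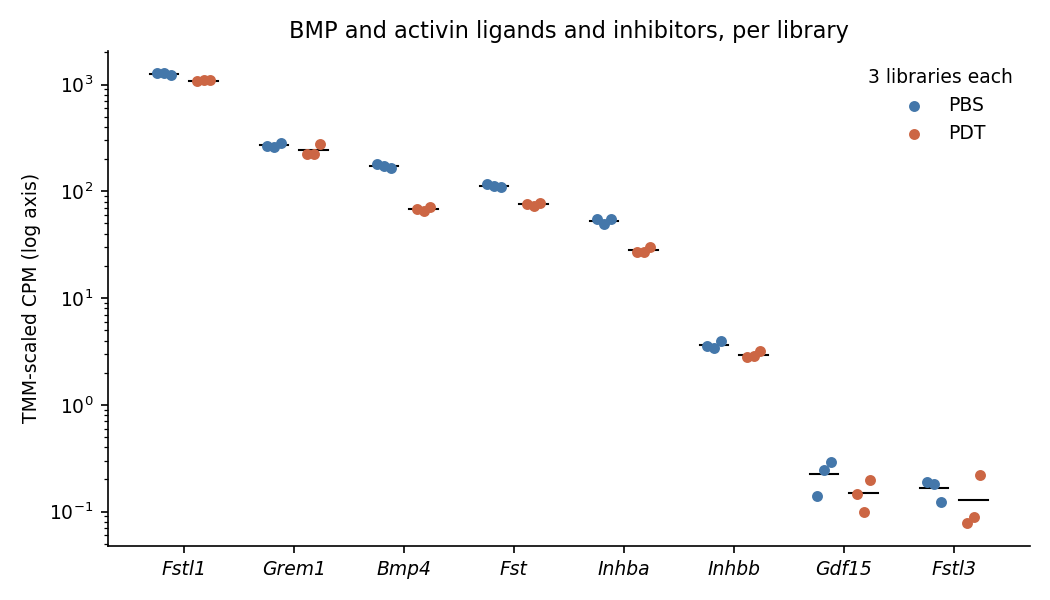
Level of each of the 8 tested members in every library, as TMM-scaled CPM on a log axis, with points for the 3 PBS and 3 PDT libraries and bars for the group means. Bmp4, Inhba, Fst and Fstl1 lie lower in all 3 PDT libraries, Grem1 in PDT replicate 3 lies among the PBS libraries, and Gdf15 and Fstl3 lie below 0.3 CPM.

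Bmp4, a BMP ligand that acts in mesoderm, limb and bone formation, fell the most of the 8. Its level was 182, 171 and 166 CPM in the PBS libraries and 67.6, 65.5 and 71.1 CPM in the PDT libraries. The lowest PBS library was thus well above the highest PDT library. The mean went from 173 ± 8.34 to 68.1 ± 2.82 CPM, a 2.54-fold decrease (log2 fold change -1.35 ± 0.05, adjusted p = 8.81e-08, n = 3 per group, edgeR). By the size of the change Bmp4 ranked 484 of the 17635 tested genes.

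Bmp2, the closest relative of Bmp4 among BMP ligands and a strong inducer of bone formation, had 0 counts in all 6 libraries. With 0 counts seen, a true value of as much as 3 counts cannot be told from none, and that corresponds to 0.0298 to 0.0368 CPM per library for counting error alone. Of the 2 related ligands, Bmp4 was therefore the one detected in these cells, in both groups.

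Inhba encodes the βA subunit, whose dimer is activin A. It was at 54.6, 49.3 and 55.5 CPM in PBS and at 27.0, 26.9 and 30.1 CPM in PDT. Every PDT library was below every PBS library. The mean fell 1.90-fold, from 53.1 ± 3.38 to 28.0 ± 1.80 CPM (log2 fold change -0.92 ± 0.06, adjusted p = 5.87e-06, edgeR).

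Inhbb encodes the βB subunit of activin B and was lower than Inhba per kb of transcript. It was at 3.56, 3.44 and 3.95 CPM in PBS and 2.78, 2.86 and 3.20 CPM in PDT. The groups did not overlap, but the difference did not pass the threshold (log2 fold change -0.31 ± 0.12, 95% interval -0.58 to -0.03 before adjustment, adjusted p = 0.0790, edgeR).

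Gdf15, a cytokine known to be induced by cell stress, was close to the limit of detection, with 12, 20 and 24 counts in the PBS libraries against 13, 10 and 20 in those of PDT. The groups overlapped, at 0.226 ± 0.0783 and 0.148 ± 0.0497 CPM. A difference was not detectable at this depth (log2 fold change -0.61 ± 0.47, 95% interval -1.66 to 0.44, adjusted p = 0.350, edgeR). The value was -0.38 without PBS replicate 3 and -0.40 without PDT replicate 2. The upper end of the interval leaves room for an increase as well as for a decrease. Of its receptor complex, Gfral had 0 to 16 counts per library (adjusted p = 0.618, edgeR). Ret, the kinase that GFRAL pairs with, was at 2.12 ± 0.423 CPM in PBS and 1.34 ± 0.0945 in PDT (adjusted p = 0.0197). The call for Ret ended without PBS replicate 1 (0.0813), PBS replicate 3 (0.0671) or PDT replicate 2 (0.0514), and without the low-count filter (0.0512).

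The RefSeq sequence before the start of the gene (GRCm38.p6) is shown for Bmp4 and Inhba, which fell together, and for the second activin subunit gene Inhbb and the BMP inhibitor gene Grem1, which did not pass the test. Each run is the 250 bases before the listed start, 5′ to 3′ on the strand of the gene, and capitals mark the motifs described next.
Bmp4, chr14:46390670-46390919, minus strand: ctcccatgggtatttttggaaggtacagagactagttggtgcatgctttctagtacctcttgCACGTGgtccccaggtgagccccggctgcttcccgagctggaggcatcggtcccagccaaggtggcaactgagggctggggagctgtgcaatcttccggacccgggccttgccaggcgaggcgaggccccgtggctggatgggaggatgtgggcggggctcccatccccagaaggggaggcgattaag
Inhba, chr13:16011601-16011850, plus strand: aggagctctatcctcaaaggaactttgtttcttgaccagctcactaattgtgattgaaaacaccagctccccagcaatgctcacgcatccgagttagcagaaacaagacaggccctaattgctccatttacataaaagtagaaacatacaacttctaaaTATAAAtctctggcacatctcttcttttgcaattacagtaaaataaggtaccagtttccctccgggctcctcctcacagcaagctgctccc
Inhbb, chr1:119422249-119422498, minus strand: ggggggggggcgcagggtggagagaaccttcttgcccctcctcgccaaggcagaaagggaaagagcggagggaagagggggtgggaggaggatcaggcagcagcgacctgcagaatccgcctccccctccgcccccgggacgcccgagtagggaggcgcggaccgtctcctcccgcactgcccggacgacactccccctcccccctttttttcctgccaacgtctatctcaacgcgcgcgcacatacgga
Grem1, chr2:113758649-113758898, minus strand: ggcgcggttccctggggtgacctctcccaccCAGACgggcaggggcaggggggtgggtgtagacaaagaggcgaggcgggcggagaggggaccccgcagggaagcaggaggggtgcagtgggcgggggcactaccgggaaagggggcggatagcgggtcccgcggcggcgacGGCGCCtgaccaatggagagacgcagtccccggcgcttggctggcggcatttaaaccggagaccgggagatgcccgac

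These windows were searched on both strands for CAGAC (a SMAD-binding box, found in 42.2% of 32851 such windows), GGCGCC (a GC-rich SMAD-binding box, 9.59%), TGANTCA (the AP-1 site, 6.75%), TGACGTCA (the cyclic AMP response element, 1.55%), CACGTG (an E-box, 6.02%) and TATAAA (the TATA box, 12.4%). No marked match overlapped another. The Bmp4 window held 1 match, the E-box that begins 188 bases before the start. The Inhba window held 1 match, TATAAA from 91 bases before the start, and the Inhbb window held 0. The Grem1 window held CAGAC from 219 bases and GGCGCC from 78 bases before the start. The windows also differed in base composition. Inhba had 43.2% GC, against 63.2% in Bmp4, 68% in Inhbb, 72% in Grem1 and a median of 52.4% over all windows. The table held 7 of the 10 members, and Bmp2, Fst and Nog were those not in it. Of the members in it that are not shown, Fstl1, which also fell, held 0 matches. Fstl3 held 2 matches of CAGAC and 1 of TATAAA, and Gdf15 held CAGAC and the E-box. A match is a description of the letters in these windows only.

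Among the inhibitors, Fst encodes follistatin, which binds activins and, more weakly, some BMPs. It was at 116, 113 and 109 CPM in PBS and 76.0, 73.4 and 78.3 CPM in PDT. The groups were clearly separate. The mean fell 1.49-fold, from 113 ± 3.58 to 75.9 ± 2.47 CPM (log2 fold change -0.57 ± 0.04, adjusted p = 7.69e-06, edgeR).

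Fstl1, a secreted glycoprotein with a follistatin-like domain, had the highest level of the set, per kb of transcript as well. Its level was 1276, 1272 and 1231 CPM in PBS and 1074, 1094 and 1105 CPM in PDT. All 3 PDT libraries were lower, by a small margin that exceeded the spread between replicates. The decrease was 1.15-fold (log2 fold change -0.21 ± 0.03, adjusted p = 0.00115, edgeR).

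Grem1 encodes gremlin 1, which binds BMP2, BMP4 and BMP7. It was at 263, 261 and 282 CPM in PBS and 224, 223 and 279 CPM in PDT. PDT replicates 1 and 2 were below all PBS libraries, and PDT replicate 3 was among them. The difference did not pass the threshold (log2 fold change -0.15 ± 0.08, 95% interval -0.33 to 0.03, adjusted p = 0.177, edgeR). Without PDT replicate 3 it did, at -0.27 (adjusted p = 0.000839), and with the replicate number as a block it did as well, at -0.16 (adjusted p = 0.0452).

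Fstl3, a follistatin relative that binds activins and myostatin, had 16, 15 and 10 counts in the PBS libraries against 7, 9 and 22 in those of PDT. The groups overlapped, and a difference was not detectable at this depth (log2 fold change -0.34 ± 0.54, 95% interval -1.55 to 0.86, adjusted p = 0.665, edgeR). The value was -0.96 without PDT replicate 3, -0.10 and -0.14 without PDT replicates 1 and 2, and -0.52 without PBS replicate 3. Nog, which encodes the BMP inhibitor noggin, had 4, 4 and 0 counts in PBS and 0 counts in each PDT library. These values are at the limit of detection in both groups, so no fold change is given.

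**Figure D2:**
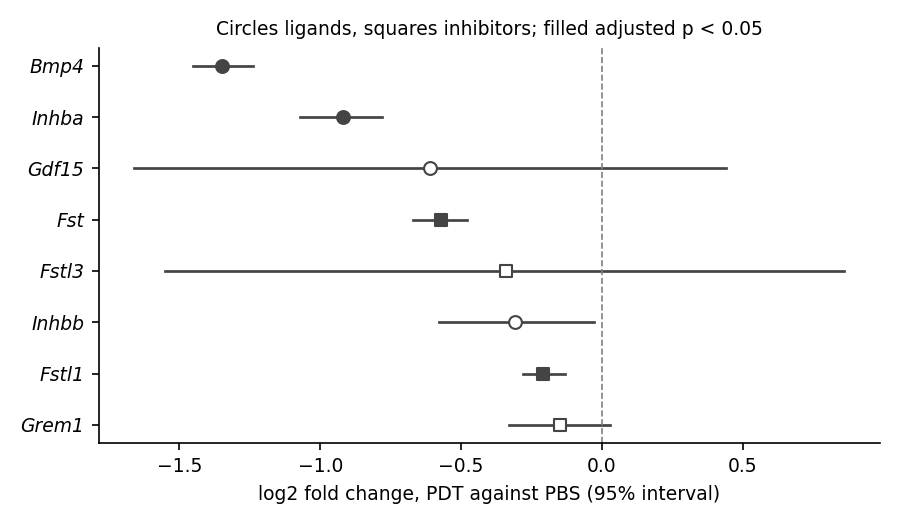
Log2 fold change of each tested member, PDT against PBS, with the 95% interval before adjustment for multiple testing; circles are ligands, squares are inhibitors, and filled symbols passed an adjusted p of 0.05. Bmp4 at -1.35 and Inhba at -0.92 lie farthest below 0 among those that passed, and the intervals of Gdf15 and Fstl3 are wide.

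In each of the 8 tested members, PDT replicate 3 had the highest level of the 3 PDT libraries. The share of all tested genes with this order was not computed, so it is not shown to be particular to the members. Relative to the PBS mean on the log2 scale, Bmp4 was at -1.35, -1.40 and -1.28 in PDT replicates 1, 2 and 3, and Inhba was at -0.97, -0.98 and -0.82. Grem1 was at -0.26, -0.27 and 0.06, and Fstl3 at -0.88, -0.72 and 0.39. The same library had the PDT score nearest to PBS on the first principal component. Its part in these values was not tested.

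To compare levels between genes, CPM were divided by the length of the longest protein-coding transcript. Per kb, the order in PBS was Fstl1 (332 CPM per kb), Bmp4 (83.8), Grem1 (64.8), Fst (39.9), Inhba (8.31), Inhbb (0.857), Gdf15 (0.147), Fstl3 (0.0841), Nog (0.0188) and Bmp2 (0). Gdf15 and Fstl3 overlapped over the libraries, as did Nog and Bmp2, and the other neighbours did not. In PDT the order was the same except that Grem1 (58.4 CPM per kb) stood above Bmp4 (33.0), and that Nog stood with Bmp2 at 0. With the shortest coding transcript of at least 1 kb in place of the longest, Bmp4 (106) was again above Grem1 (64.8) in PBS and below it in PDT (41.7 against 58.4). The place of Fst did depend on that choice, since it overlapped with Bmp4 in PBS and with Grem1 in PDT on the shorter transcript.

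Ratios between members were taken within each library, where the scaling between libraries cancels. A ligand was set against a related ligand or an inhibitor. The log2 ratio of Bmp4 to Grem1 counts was -0.53, -0.61 and -0.77 in PBS and -1.73, -1.77 and -1.97 in PDT. The groups did not overlap, and the ratio fell by 1.19 on the log2 scale, or 2.28-fold. Per kb of the longest transcript, Grem1 was 0.776 ± 0.066 times Bmp4 in PBS and 1.77 ± 0.16 times Bmp4 in PDT. On the shorter transcript these ratios were 0.614 and 1.40.

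The log2 ratio of Inhba to Inhbb was 3.94, 3.84 and 3.81 in PBS and 3.28, 3.23 and 3.23 in PDT. The groups did not overlap, and the balance moved 1.53-fold away from Inhba. Against follistatin, the log2 ratio of Inhba to Fst was -1.09, -1.20 and -0.98 in PBS and -1.49, -1.45 and -1.38 in PDT. This was a smaller shift of -0.35, or 1.28-fold, again without overlap. Per kb of the longest transcript, Fst was 4.81 ± 0.38 times Inhba in PBS and 6.13 ± 0.24 times Inhba in PDT, and 2.93 and 3.73 times on the shorter transcript. The log2 ratio of Inhba to Fstl1 went from -4.57 ± 0.11 to -5.29 ± 0.08, without overlap. That of Inhba to Fstl3 overlapped (8.31 ± 0.39 and 7.85 ± 0.68), with Fstl3 at 7 to 22 counts. Its difference of -0.45 was -0.06 without PDT replicate 3, -0.23 without PBS replicate 3 and -0.69 without PDT replicate 1. For 4 of the 5 ratios the two-sided exact permutation test gave p = 0.1, which is the smallest that 3 against 3 can give (0.12 adjusted over the 5 ratios), and for Inhba to Fstl3 it gave 0.6. With 3 libraries against 3 the test could not pass 0.05 for any of the ratios. It took the 6 libraries as unpaired.

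**Figure D3:**
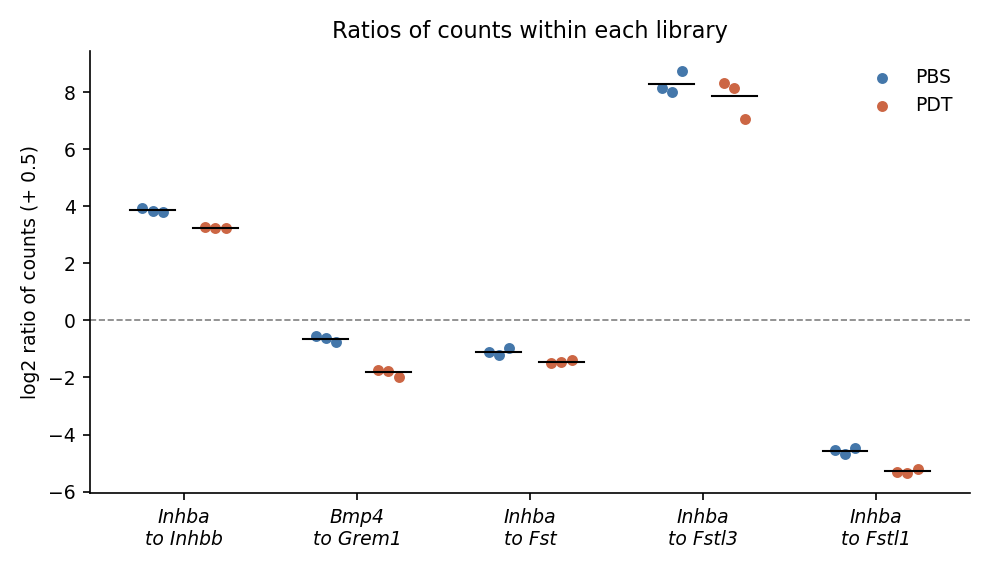
Log2 ratio of counts, each with 0.5 added, of a ligand to a related ligand or to an inhibitor in each library, with bars for the group means. The PDT libraries lie below the PBS libraries without overlap for 4 ratios, by 1.19 for Bmp4 to Grem1 and by 0.35 for Inhba to Fst, while Inhba to Fstl3 overlaps.

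The tested genes whose pattern over the 6 libraries was most like that of a member were found by the root mean square difference of centred log2 CPM, among 10334 genes. For Bmp4 these were Col5a2, Phldb2 and Depp1, at 0.044, 0.045 and 0.046, and for Inhba they were Far1, Fam20a and Ccdc9b, at 0.043, 0.046 and 0.047. Fst was closest to Col5a1 (0.019), Swap70 (0.021) and Asap1 (0.026), and Fstl1 to Eif1a (0.013), Numb (0.014) and Lsm14a (0.015). Col5a2, a chain of collagen V, went from 943 ± 27.9 to 379.6 ± 11.3 CPM, and Col5a1, another chain of it, from 855 ± 26.2 to 574 ± 6.40 CPM. The libraries form separate groups, so the measure mainly reads a like fold change.

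Other ligands of the family were mostly near or below detection. Of 22 such genes, 7 had 0 counts in all libraries and 17 were not tested. Of the 5 tested, 2 were higher and 1 was lower in PDT (against 18.7% and 17.5% of all tested genes). Gdf11, a ligand close to myostatin that signals through activin receptors, had the highest level per kb of the tested ones and rose 1.83-fold, from 53.1 ± 0.720 to 96.9 ± 1.13 CPM (log2 fold change 0.87 ± 0.04, adjusted p = 2.28e-07, edgeR). Its counts were 4504, 4299 and 4398 in the PBS libraries against 8823, 9671 and 9700 in those of PDT, without overlap. Per kb of the longest transcript, Gdf11 stood at 13.1 CPM per kb in PBS and 23.9 in PDT, beside 8.31 and 4.38 for Inhba. On its shorter coding transcript Inhba was at 34.7 and 18.3 CPM per kb. Its order against Gdf11 in PBS therefore depends on the transcript chosen, and only the longest was used for Gdf11. Bmp5 was low and fell from 71, 78 and 54 counts to 3, 13 and 14 (log2 fold change -2.98 ± 0.43, adjusted p = 0.000601). Gdf9, known as an oocyte factor, rose from 12, 11 and 12 counts to 46, 36 and 68 (adjusted p = 0.00333).

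Of 19 other extracellular inhibitors and modulators, 8 were tested, 2 were lower and 0 were higher, with a median log2 fold change of -0.13. Over all tested genes 17.5% were lower and 18.7% higher, so these counts do not set the list apart. Crim1, a transmembrane protein that binds BMPs, fell from 114 ± 3.60 to 80.3 ± 4.87 CPM (-0.51 ± 0.05, adjusted p = 5.45e-05, edgeR). Bmper, a BMP-binding modulator, fell from 20.4 ± 3.03 to 14.2 ± 0.507 CPM (-0.52 ± 0.10, adjusted p = 0.00275).

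Receptor genes were lower or did not pass the test. Of 10 type I and type II receptors 6 were tested, 3 were lower and 0 higher, and the median was -0.27. Over all tested genes 17.5% were lower and 18.7% higher. The BMP type II receptor gene Bmpr2 fell 1.47-fold from 123 ± 4.83 to 83.8 ± 9.01 CPM (log2 fold change -0.56, adjusted p = 0.000250, edgeR). Once length and GC content of the transcripts entered as offsets, Bmpr2 was at -0.18 and still passed (adjusted p = 0.00601). The type I receptor gene Acvr1 fell 1.45-fold from 61.2 ± 1.80 to 42.4 ± 0.860 CPM (adjusted p = 1.43e-05). Bmpr1a was at -0.30 ± 0.04 (adjusted p = 0.000173), which no longer passed with the same offsets (-0.06, adjusted p = 0.367). The activin receptor genes Acvr1b and Acvr2a did not pass the threshold, at 0.06 ± 0.05 (adjusted p = 0.321) and -0.23 ± 0.09 (adjusted p = 0.0669). Acvr2b, named after its value was seen, pointed up and did not pass either (0.35 ± 0.13, adjusted p = 0.0575, edgeR). Its interval before adjustment was 0.06 to 0.63, and its groups did not overlap, as for 49.0% of all tested genes. Acvr2a passed the threshold with the replicate number as a block (-0.23, adjusted p = 0.0249), without PDT replicate 3 (-0.30, adjusted p = 0.0251), with DESeq2 (-0.24, adjusted p = 0.0288) and with a stricter low-count filter (-0.25, adjusted p = 0.0448). It was at -0.15 without PDT replicate 2 and at 0.05 with the offsets.

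Co-receptors moved both ways, with 3 of 9 tested genes higher and 3 lower (18.7% and 17.5% over all tested genes). Tgfbr3, the betaglycan gene, whose product binds TGF-β and inhibins, rose 1.47-fold from 64.0 ± 0.195 to 93.9 ± 4.78 CPM (adjusted p = 1.43e-05, edgeR). Tmeff1 rose by 0.20 ± 0.05, a call that ended without PBS replicate 1 (adjusted p = 0.0591) or PDT replicate 1 (0.0531). Neo1, the receptor of the RGM co-receptors, fell 1.28-fold and the endoglin gene Eng fell 1.14-fold. Rgmb rose and Tmeff2 fell as well, at 0.18 ± 0.05 and -1.18 ± 0.34, and these 2 were named after their values were seen. Bambi, a decoy receptor, was at -0.45 ± 0.22 (adjusted p = 0.151).

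Of 7 proteases that process the ligands or their inhibitors, 5 were tested and 3 were lower (17.5% over all tested genes). Bmp1, a procollagen and chordin protease and not a ligand despite its name, fell from 156 ± 8.86 to 114 ± 7.83 CPM (adjusted p = 0.000304, edgeR), and its relative Tll1 fell 3.27-fold to 4.27 ± 0.373 CPM. Pcsk6, a proprotein convertase, fell from 3.04 ± 0.202 to 1.49 ± 0.127 CPM (adjusted p = 0.000408). Furin, the main convertase of the precursors, was at 107 ± 4.74 and 114 ± 2.92 CPM (log2 fold change 0.10 ± 0.04, adjusted p = 0.116), and passed the threshold with scaling by library size only (0.14, adjusted p = 0.0242).

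Among SMADs and their ubiquitin ligases, 6 of 10 were lower and 1 was higher (17.5% and 18.7% over all tested genes). The inhibitory SMAD genes Smad7 and Smad6 fell by 1.12 ± 0.07 and 0.96 ± 0.07 on the log2 scale, and Smad9, which transmits BMP signals, fell by 0.75 ± 0.08 (adjusted p = 2.62e-06, 5.84e-06 and 0.000106, edgeR). Smurf1, a ubiquitin ligase of BMP-activated SMADs, rose from 82.4 ± 1.06 to 112 ± 2.98 CPM (adjusted p = 2.07e-05).

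Known BMP target genes, a list that also holds Smad6, Smad7 and Bambi, had 9 of 13 tested members lower and 0 higher. The median was -0.45, and of all tested genes 17.5% were lower and 18.7% higher. Msx1, Msx2 and Dlx5 showed little change, at 0.07 ± 0.11, 0.09 ± 0.26 and -0.05 ± 0.08 (adjusted p = 0.664, 0.820 and 0.704, edgeR). They were named after their values were seen. Id1 and Id3, inhibitors of differentiation induced directly by BMPs, fell 1.32-fold and 1.31-fold, from 117 ± 2.13 to 88.8 ± 4.53 and from 119.6 ± 2.80 to 91.1 ± 2.93 CPM (adjusted p = 0.000112 and 6.60e-05, edgeR). Id2 was at -0.31 ± 0.05 (adjusted p = 0.000951), Atoh8 at -0.72 ± 0.06 (adjusted p = 2.81e-05) and Runx2, a master regulator of osteoblasts, at -0.60 ± 0.06 (adjusted p = 5.48e-05). Over all 92 other pathway genes, 55 were tested, 26 were lower and 6 were higher (24 and 10 with scaling by library size only), with a median of -0.24. Many of these genes also respond to TGF-β, and the lists do not separate the pathways. All lists were chosen with earlier results of these data known. Their counts beside the shares of all tested genes are therefore descriptions only.

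**Figure D4:**
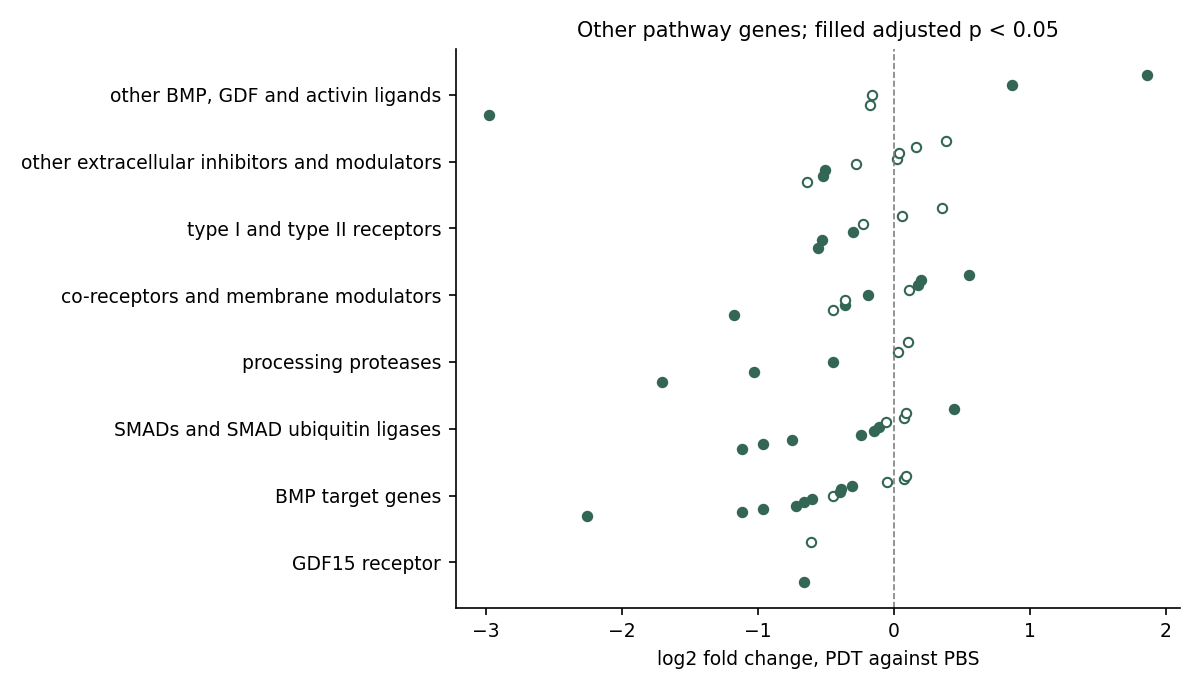
Log2 fold change, PDT against PBS, of each tested gene of the 8 other lists, 1 point per gene and list, filled where the adjusted p was under 0.05. All filled points of the inhibitors, receptors, proteases and BMP targets lie below 0, and Gdf11 at 0.87 and Gdf9 at 1.86 are the higher genes among the ligands.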

How the data were processed

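RNA was measured in 3 PBS and 3 PDT samples. Per the labels, total RNA was extracted with Trizol, depleted of ribosomal RNA and made into directional libraries. The authors deposited raw read counts by gene symbol as whole numbers. The submitters' processing notes name cutadapt 4.6, STAR 2.7.11b and GRCm39. How reads were counted, with which annotation and strand setting, how multi-mapping reads were handled and when RNA was taken after treatment is not given in the sources used here. In every library more genes had a count of 4 than of 2 or 3, so low counts need not be independent reads, and limits cover counting error only.

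Groups came from the treatment labels and replicate numbers from the titles. Genes were filtered with filterByExpr, scaled with TMM and tested with edgeR 4.0.16 (R 4.3.3) on group alone. Adjustment was by Benjamini-Hochberg over 17635 genes. Same-numbered samples deviated together (r across genes of 0.21, 0.22 and 0.17, other pairs -0.16 to -0.05), so they may be pairs. The main tests and the permutation test of the ratios did not use the pairing. Values with a replicate block are given where they change a call. Each pair of libraries differed by more than counting noise (lowest chi-square over its degrees of freedom, 11.2).

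Planned ratios with Bmp2 or Nog were not computed, since those genes were at the limit of detection. Lengths are of GENCODE M21 transcripts of an earlier build. Pathway genes named outside the set were the 4 called genes with the lowest adjusted p of each list and 13 fixed genes. Those said to be named after their values were seen are additions to these. A gene of these lists is not reported here. The members and lists were chosen with earlier results of these data known. Alternatives were DESeq2 1.42.0, limma-voom (limma 3.58.1), RLE scaling, scaling by library size only, 2 other filters, scaling without mitochondrial, histone and ribosomal RNA genes, the block, length and GC offsets (mgcv 1.9.3), and leaving out each library. On simulated counts for 17357 genes, 91 of 100 genes raised 1.5-fold and 100 of 100 lowered to 0.4-fold were found, with 9 false calls. The simulation gave all genes a common dispersion and changed only better-expressed genes. It therefore does not cover genes near the limit of detection.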

Additional observations from a re-analysis of the deposited data

How the results depend on the processing

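Bmp4, Inhba, Fst and Fstl1 were lower and past the threshold under all alternatives run, with log2 fold changes of -1.44 to -1.30, -0.98 to -0.68, -0.60 to -0.52 and -0.23 to -0.16. Inhba moved most with offsets for transcript length and GC content (-0.68 against -0.92). Its longest coding transcript has 6390 nt and 41.4% GC. Over 9558 better-expressed genes, the log2 fold change ran with transcript length (Spearman rho -0.34) and with GC content (0.38). The cause of the shift and of this trend was not tested. These offsets also take out any effect of treatment that follows length or GC. Inhbb, Gdf15 and Fstl3 stayed below 0 and missed the threshold wherever they were tested, but leaving out 1 library moved Gdf15 (-0.61) to between -0.89 and -0.38 and Fstl3 (-0.34) to between -0.96 and -0.10. Grem1 stayed lower and passed the threshold with the replicate block (-0.16) and without PDT replicate 3. Leaving out 1 library gave Grem1 values of -0.27 to -0.10, and the cause was not tested. The block changed the calls of no other member, and 6067 genes of all were called with it against 6372. The 5 ratios kept their sign with 2 added to each count and without each library in turn, but Inhba to Fstl3 (-0.45) ranged from -0.69 without PDT replicate 1 to -0.06 without PDT replicate 3. The other 4 ratios moved by less than 1.5 times. With library size only, 63.0% of the calls were higher in PDT against 51.7%. Of the other named genes, Acvr2a changed its direction with the length and GC offsets (0.05), and Bmpr2 fell less with them (-0.18 against -0.56). With the shorter transcript, Inhba per kb was 40.6 times Inhbb in PBS and 26.4 times in PDT, against 9.71 and 6.32, a choice of transcript made after seeing the data. Depth limits Bmp2, Nog, Gdf15 and Fstl3, which had at most 24 counts per library.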
